A study of Mus musculus with 12 samples.

Results

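The 9 genes described here mark cartilage cells and the matrix that these cells lay down: Sox9, Sox5, Sox6, Comp, Matn1, Matn3, Chad, Prg4 and Cilp. They were followed through every Illumina mouse BeadChip probe whose symbol was one of these names, which gave 21 probes of the 45281 on the array. Of these probes, 14 stood in the deposited normalized table of 21004 probes and covered 7 of the 9 genes. The other 7 probes, among them both Matn3 probes and the Cilp probe, had only a non-normalized intensity. RNA came from the hip cartilage of C57BL6 mice labelled as aged 4 to 6 weeks, and the 12 arrays formed 4 groups of 3, a control and an injured group of WT mice and the same pair of groups of Mapk9 KO mice. Mapk9 encodes the stress kinase JNK2, and the label of the knockout groups reads MAPK9 KO, without naming the allele. Injury was the avulsion of the femoral epiphysis. Control hips were snap-frozen as soon as they had been avulsed whereas the injured ones spent 4 h in culture, so injury and culture cannot be told apart in any value below. The methods describe each replicate as 6 hips pooled from 3 mice, without naming the knockout mice, and p-values measure the spread between the arrays of a group.

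SOX9 is the transcription factor that sets and keeps chondrocyte identity, and it switches on cartilage matrix genes together with its partners SOX5 and SOX6, which bind DNA but carry no activation domain of their own. Among the products of such cells, COMP (a thrombospondin), the matrilins MATN1 and MATN3, and chondroadherin (CHAD) link collagen fibrils with proteoglycans, while PRG4 (lubricin) coats the joint surface and CILP is laid down in the middle zone of articular cartilage. Several of these genes are used elsewhere too: Sox6 also acts in skeletal muscle and in erythroid precursors, Comp is made by tendon, and Prg4 by the lining of the joint.

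Each probe is a 50-base stretch of a transcript, and the probes of 1 gene can report different transcripts. This mattered most for Sox5, whose probes gave different answers, so the first 30 bases of each are shown, in lower case with no base marked. The number in each name is the position in its transcript record at which the probe starts.
Sox5, base 27: aggtttggaccgacttgacaggttcagttg
Sox5, base 1832: tccttcaggcctttcccgacatgcacaatt
Sox5, base 2450: tccggttcatccttcccagtggccaagcac
Sox5, base 2417 of a different cDNA record: agcttcctgcaaggcgagcgaggttggcta
In the coordinates of the array annotation, whose build is not named in it, the probe at base 27 lies 368 kb from the one at base 1832, on chromosome 6. The Sox6 probes of the normalized table belong to 2 cDNA records and are shown for the same reason.
Sox6, base 1889: ggccagaggacgcagaaggtgagtggcttt
Sox6, base 3698: tggagctgcaggtcaaatgtggacactatg

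Among the 7 genes of the normalized table, Matn1 had the largest change, Sox5 changed at some of its probes, and Chad was not called in either genotype. For these, the 250 bases before an annotated RefSeq start (GRCm38.p6) are shown on the strand of the gene. The array probes were not placed on this build, so whether the Sox5 probes report the transcript of the Sox5 start shown was not tested. Capitals mark any match, on either strand, to the SOX-type letters ACAAAG or ACAATG, to the AP-1 letters TGANTCA or to TATAAA. Of the 32851 promoter windows of the same length, 16.5%, 10.7%, 6.7% and 12.4% held these letters.
Matn1, chr4:130944135-130944384, plus strand: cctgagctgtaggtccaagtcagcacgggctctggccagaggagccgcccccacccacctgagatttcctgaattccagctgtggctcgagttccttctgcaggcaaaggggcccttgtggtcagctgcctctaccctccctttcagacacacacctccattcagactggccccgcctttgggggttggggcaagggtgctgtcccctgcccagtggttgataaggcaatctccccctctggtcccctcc
Sox5, chr6:143947107-143947356, minus strand: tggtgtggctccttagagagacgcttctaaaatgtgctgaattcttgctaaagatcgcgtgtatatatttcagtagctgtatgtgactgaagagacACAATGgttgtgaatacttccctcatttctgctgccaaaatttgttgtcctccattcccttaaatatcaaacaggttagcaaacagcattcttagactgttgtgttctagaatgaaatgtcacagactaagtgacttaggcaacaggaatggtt
Chad, chr11:94564797-94565046, plus strand: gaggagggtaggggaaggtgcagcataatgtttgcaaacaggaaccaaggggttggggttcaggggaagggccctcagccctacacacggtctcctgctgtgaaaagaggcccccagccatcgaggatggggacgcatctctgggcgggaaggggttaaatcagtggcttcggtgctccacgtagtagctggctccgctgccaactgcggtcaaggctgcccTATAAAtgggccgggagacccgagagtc
The Matn1 window held none of these letters, the Sox5 window held ACAATG from 154 to 149 bases before the start, and the Chad window held TATAAA from 28 to 23 bases before it. A match is a description of these letters and not a site. Windows for Cilp, Matn3 and 6 starts of Sox6 were also in the table.

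Values are normalized log2 values, and a difference is injured minus control in log2 units unless another pair is named. A difference was called when it exceeded 2-fold with an adjusted p under 0.05 (limma, Benjamini-Hochberg over all 21004 probes). Where a gene had several probes, the main probe was the one with the highest mean over the 12 arrays. The arrays detected between 16930 and 18969 probes each (detection p under 0.05), and pairs of arrays correlated at 0.868 to 0.986 over the normalized values. Mapk9 itself, at its main probe, lay at 10.05 to 10.90 in the 6 WT arrays and at 8.69 to 9.28 in the 6 Mapk9 KO arrays. That probe was still detected on all 6 Mapk9 KO arrays, at -1.57 against WT in control arrays and in injured arrays. Its second probe was detected on none of the Mapk9 KO arrays, on all 3 WT control arrays and on 1 of 3 WT injured arrays. Both probes were called lower in Mapk9 KO, the direction of the labels. For the tissue label, 16 to 18 of the 18 measured genes of a cartilage list (collagens II, IX and XI, aggrecan and others) were detected on all arrays of each group, and Epyc was the member of that list detected on no control array. Genes of other tissues were detected too. All 12 measured erythroid genes and all 9 measured granulocyte genes were detected on every array, and so were 17 of the 20 skeletal muscle genes in WT control arrays and 19 in Mapk9 KO control arrays. In these bulk samples fewer cells of a type and less RNA per cell cannot be told apart, and a normalized value is relative to all RNA on its array.

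Sox9 was higher after injury in both genotypes. At its main probe (base 4007) the WT control arrays read 12.58, 12.42 and 12.20 and the WT injured arrays 13.56, 13.73 and 13.47. The Mapk9 KO control arrays read 12.32, 12.47 and 11.36 there, against 13.56, 13.77 and 13.44 in the Mapk9 KO injured arrays. Every injured array lay above every control array, and the third Mapk9 KO control array stood lowest of all. The injured-minus-control difference was 1.19 ± 0.20 in WT (SE, limma, adjusted p = 0.0021) and 1.54 ± 0.27 in Mapk9 KO (limma, adjusted p = 0.0012). The second probe (base 3518) read 7.60 to 8.28 in WT control arrays and 9.49 to 9.84 in WT injured arrays. In Mapk9 KO it read 7.37 to 7.82 in control arrays and 9.79 to 10.38 in injured arrays. Its groups did not overlap either, and its differences were 1.71 ± 0.23 (limma, adjusted p = 0.00057) and 2.47 ± 0.22 (limma, adjusted p = 1.02e-05), which are 3.27-fold and 5.53-fold. The main probe reached up to 61.4% of the intensity of the brightest probe on its array, and the second up to 7.85%. In WT, 7.55% of all probes rose and 7.14% fell, and in Mapk9 KO 9.59% rose and 9.14% fell, which is the background for each call of a member.

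The Sox5 probes did not move alike. At the main probe (base 2450) the WT control arrays read 10.75, 9.71 and 10.45 and the WT injured arrays 11.89, 12.09 and 11.72. The Mapk9 KO control arrays read 10.18, 10.30 and 9.87 and the Mapk9 KO injured arrays 12.05, 11.99 and 11.83. Control and injured arrays were separate in both genotypes, with rises of 1.59 ± 0.27 (limma, adjusted p = 0.00235) and 1.84 ± 0.18 (limma, adjusted p = 2.38e-05). The probe at base 1832 also rose, by 1.72 ± 0.36 in WT (limma, adjusted p = 0.00654) and by 2.19 ± 0.19 in Mapk9 KO (limma, adjusted p = 1.04e-05). The probe of the different cDNA record (base 2417) was not called, with differences of 0.09 (95% interval -0.37 to 0.55) in WT and 0.57 (0.08 to 1.06) in Mapk9 KO. A further probe, filed under the older name A730017D01Rik and matched to Sox5 through the RefSeq table, is no member by the symbol rule. It rose by 1.22 ± 0.22 in WT (limma, adjusted p = 0.00339) and by 1.46 ± 0.20 in Mapk9 KO (limma, adjusted p = 0.000187).

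The Sox5 probe at base 27, the one nearest the transcript's 5′ end, rose in Mapk9 KO but was not called in WT. Its WT control arrays read 7.39, 5.79 and 6.79 and its WT injured arrays 7.61, 6.12 and 6.85. Its Mapk9 KO control arrays read 6.50, 6.20 and 6.03 and its Mapk9 KO injured arrays 8.72, 7.57 and 8.44. The WT groups overlapped almost fully, while each Mapk9 KO injured array lay above all 3 Mapk9 KO control arrays. The differences were 0.20 ± 0.44 in WT (limma, adjusted p = 0.778) and 2.00 ± 0.28 in Mapk9 KO (limma, adjusted p = 0.000251). Among arrays of the same replicate number, the injured-minus-control difference was 0.22, 0.33 and 0.06 in WT and 2.22, 1.37 and 2.42 in Mapk9 KO. The test of the difference between the genotypes' injury effects (the interaction) gave 1.80 ± 0.59 without a call (limma, adjusted p = 0.357). With the replicate number as a block the same difference had an SE of 0.33 and was called (limma, adjusted p = 0.0484). Mapk9 KO injured arrays exceeded WT injured arrays by 1.38 at this probe, again not called without the block (limma, adjusted p = 0.229) and called with it (limma, adjusted p = 0.027). The plot of the Sox5 probes joins arrays of the same number to show this. With the muscle list described below as a covariate the interaction was 1.62 (limma, adjusted p = 0.717), and with the marrow lists it was 0.81 (limma, adjusted p = 0.681). The second WT control array did not detect this probe, and it never passed 2.51% of the intensity of the brightest probe.

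**Figure D1:**
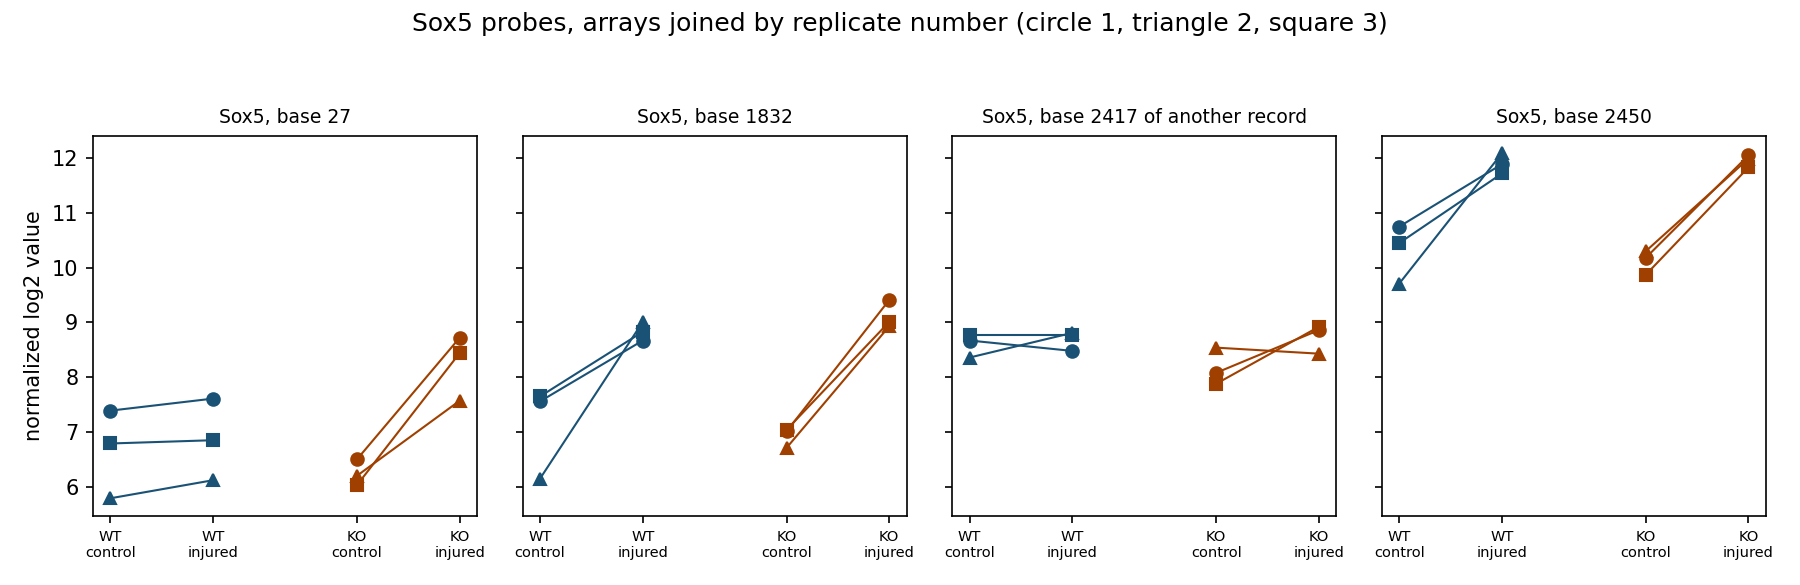
Normalized log2 value (y axis) of the 4 Sox5 probes in control and injured arrays of WT (blue) and Mapk9 KO (brown), with lines joining arrays of the same replicate number. The probes at bases 1832 and 2450 climb along all 6 lines, whereas at base 27 the WT lines are nearly flat (0.06 to 0.33) and the Mapk9 KO lines climb by 1.37 to 2.42.

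Sox6 moved the other way, and less firmly. Its main probe (base 1889) read 9.09, 9.22 and 8.72 in WT control arrays and 8.67, 8.80 and 8.25 in WT injured arrays, which overlapped. In Mapk9 KO it read 9.18, 9.31 and 9.40 in control arrays and 8.76, 8.40 and 8.55 in injured arrays, which did not. The differences were -0.44 ± 0.23 (limma, adjusted p = 0.195) and -0.73 ± 0.18 (limma, adjusted p = 0.00746), the second within the p limit but under the 2-fold limit of a call. Among arrays of the same replicate number they were -0.42, -0.42 and -0.47 in WT and -0.42, -0.91 and -0.86 in Mapk9 KO. With the replicate number as a block neither was called (limma, adjusted p = 0.0882 and 0.0102). The second probe (base 3698) was detected on 2 of 3 control arrays in each genotype and on none of the 6 injured arrays, so its level after injury is only a bound. Control over injured was at least 1.36-fold in WT, where the fitted fall was 1.99-fold (SE of 0.23 in log2 units) and just missed the fold limit (limma, adjusted p = 0.01). Without the third WT control array or the third WT injured array the difference was -1.13 or -1.15, and was called, as it was with the marrow covariate (-1.03). The ratio was at least 1.43-fold in Mapk9 KO, where the probe fell by 1.14 ± 0.25 (limma, adjusted p = 0.00392). With quantile normalization the differences in both genotypes lay below these bounds, at -0.40 in Mapk9 KO, where the probe was then not called. The call in Mapk9 KO was lost without the third Mapk9 KO control array (-0.90).

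Comp rose after injury. At its second probe (base 2357) the WT control arrays read 10.92, 9.81 and 10.98 and the WT injured arrays 11.69, 12.21 and 12.20. The Mapk9 KO control arrays read 10.74, 10.57 and 10.13 there and the Mapk9 KO injured arrays 11.42, 11.68 and 11.86. All injured arrays lay above all controls of their genotype. The rises were 1.46 ± 0.32 in WT (limma, adjusted p = 0.00796) and 1.17 ± 0.21 in Mapk9 KO (limma, adjusted p = 0.00126), the second being 1.00 without the third Mapk9 KO control array, which ended its call. The main probe (base 2241) lay at 12.39 to 13.70 in WT control and 14.09 to 14.33 in WT injured arrays, and at 12.56 to 13.30 and 13.89 to 14.17 in Mapk9 KO. Its difference of 1.08 ± 0.30 in WT was called (limma, adjusted p = 0.0264), and its 1.00 ± 0.22 in Mapk9 KO missed the fold limit (limma, adjusted p = 0.00434). The call in WT was lost without the second WT control array (0.72) and without any 1 of the WT injured arrays (1.01 to 1.13). This probe reached up to 84.2% of the intensity of the brightest probe of its array.

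Matn1, a matrilin made by cartilage and few other tissues, had the largest change of the 7 genes in the normalized table. The WT control arrays read 10.15, 8.87 and 10.15 and the WT injured arrays 12.67, 13.12 and 12.86. The Mapk9 KO control arrays read 9.62, 10.09 and 9.11 and the Mapk9 KO injured arrays 12.62, 12.78 and 12.64. The gap between the highest control and the lowest injured array was wider than the spread within any group. The difference was 3.16 ± 0.33 in WT (8.94-fold, limma, adjusted p = 0.000135) and 3.07 ± 0.24 in Mapk9 KO (8.42-fold, limma, adjusted p = 4.04e-06). Leaving out any 1 array gave 2.74 to 3.37 in WT and 2.83 to 3.31 in Mapk9 KO. The single Matn1 probe stands at base 1773 of its record.

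Chad and Prg4 were not called in either genotype. Chad, a leucine-rich repeat protein that binds collagen and integrins, read 14.16, 12.85 and 13.42 in WT control arrays and 14.50, 14.29 and 14.05 in WT injured arrays. It read 14.47, 14.19 and 13.50 in Mapk9 KO control arrays and 13.99, 14.29 and 13.62 in Mapk9 KO injured arrays. The groups overlapped in both genotypes. Its differences were 0.80 (95% interval 0.11 to 1.50; limma, adjusted p = 0.0861) and -0.09 (-0.68 to 0.50; limma, adjusted p = 0.831). Among arrays of the same replicate number they were 0.34, 1.45 and 0.63 in WT and -0.49, 0.10 and 0.12 in Mapk9 KO. With the replicate number as a block the adjusted p was 0.0453 in WT and 0.714 in Mapk9 KO (limma), and the WT value stayed under the 2-fold limit of a call. Without the first WT control array the WT difference was 1.15 and was called (limma, adjusted p = 0.0199). Prg4, the lubricin gene, at its main probe (base 3406) lay between 13.41 and 14.22 in WT control and 14.04 and 14.39 in WT injured arrays, a difference of 0.34 (-0.21 to 0.89). In Mapk9 KO it lay between 13.90 and 14.72 in control and 13.73 and 14.28 in injured arrays, a difference of -0.28 (-0.81 to 0.25). The second Prg4 probe (base 141) differed by 0.35 (-0.13 to 0.84) in WT and by 0.30 (-0.14 to 0.74) in Mapk9 KO. These intervals reach changes of up to 2-fold or more for Chad in WT and stop short of 2-fold in either direction for both Prg4 probes. Both genes sat near the top of the measured range, the main Prg4 probe at 74.2% to 94.1% and Chad at 33.1% to 92% of the intensity of the brightest probe of each array, and the part of that in their small differences was not tested.

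Matn3 and Cilp gave almost no signal. Both Matn3 probes were not detected on any of the 12 arrays, with intensities of 96 to 150, and the Cilp probe was detected on 1 array, the third Mapk9 KO injured one, at 185 against 97 to 180 on the others. The array medians ranged from 121 to 190. Whether these transcripts were scarce in the tissue or poorly caught by these probes was not tested. Of the 7 member probes outside the normalized table, none was called when all 45281 probes were normalized and fitted together.

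**Figure D2:**
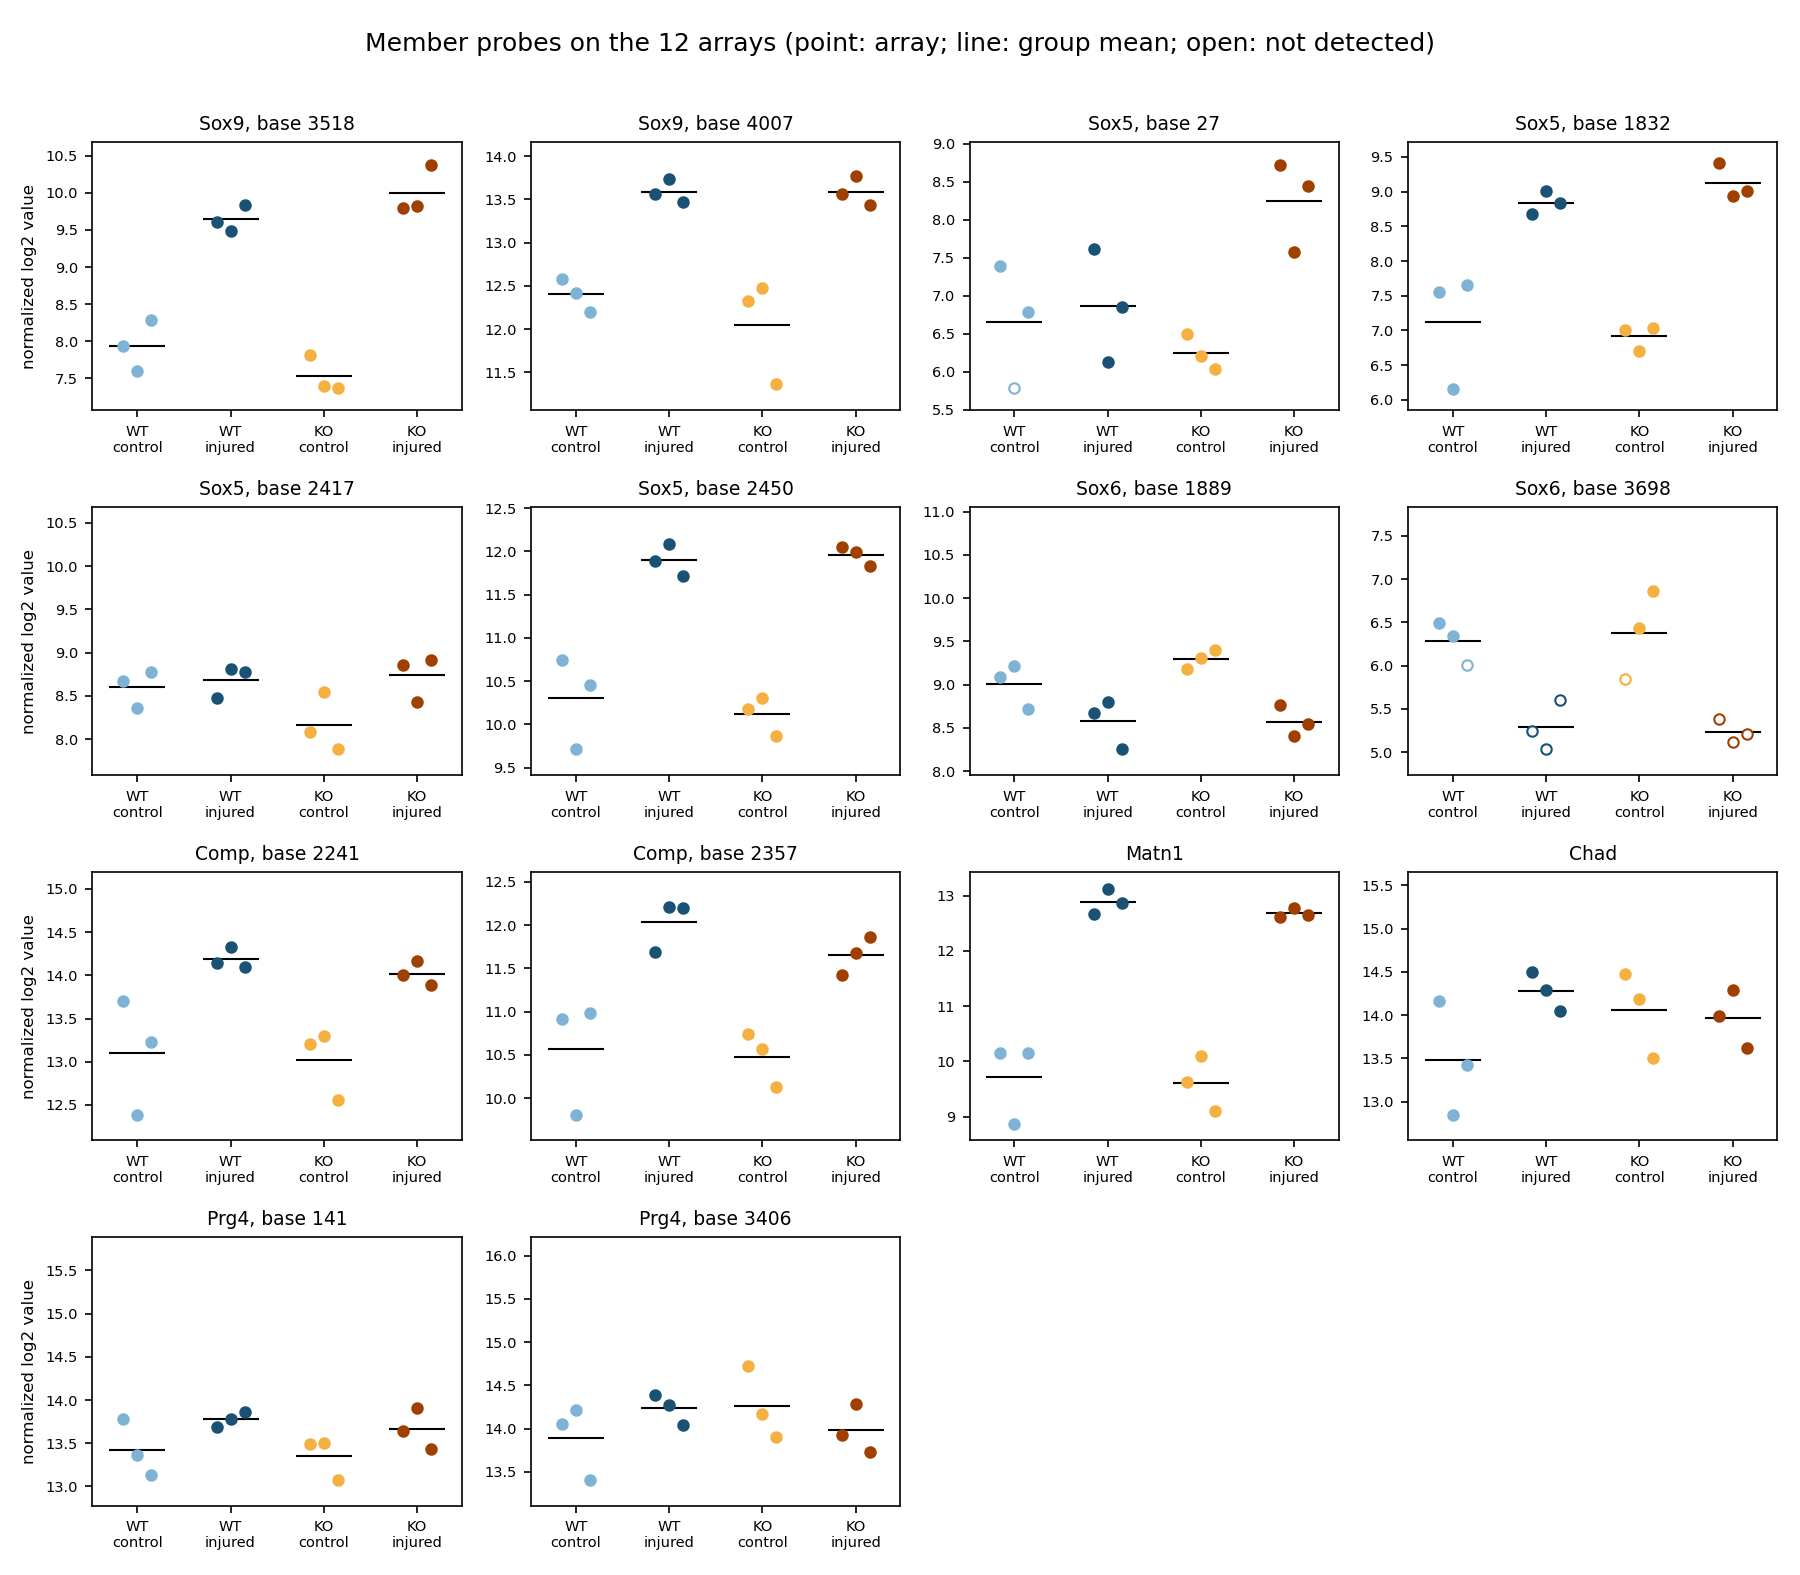
Normalized log2 value (y axis, a separate range per panel) of the 14 member probes on the 12 arrays by group; each point is 1 array, each line a group mean, and open points are arrays on which the probe was not detected. Injured arrays stand above control arrays at Sox9, Comp, Matn1 and the Sox5 probes at bases 1832 and 2450, while Chad and Prg4 groups overlap and the Sox6 probes lie lower after injury.

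Counted over probes, 7 of the 14 member probes rose in WT and none fell. These 7 were probes of Sox9, Sox5, Comp and Matn1. Over all probes the shares in WT were 7.55% and 7.14%. In Mapk9 KO, 7 member probes rose and 1 fell, from the same 4 genes and Sox6, against 9.59% and 9.14% of all probes. The median difference over all probes was -0.02 in WT and -0.02 in Mapk9 KO. Averaged over both genotypes, where all probes were called higher in 8.06% and lower in 7.91%, Matn1 had a difference of 3.12 (limma, adjusted p = 7.75e-08) and the main Sox9 probe 1.36. The plot of injury effects shows the 2 genotypes side by side.

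**Figure D3:**
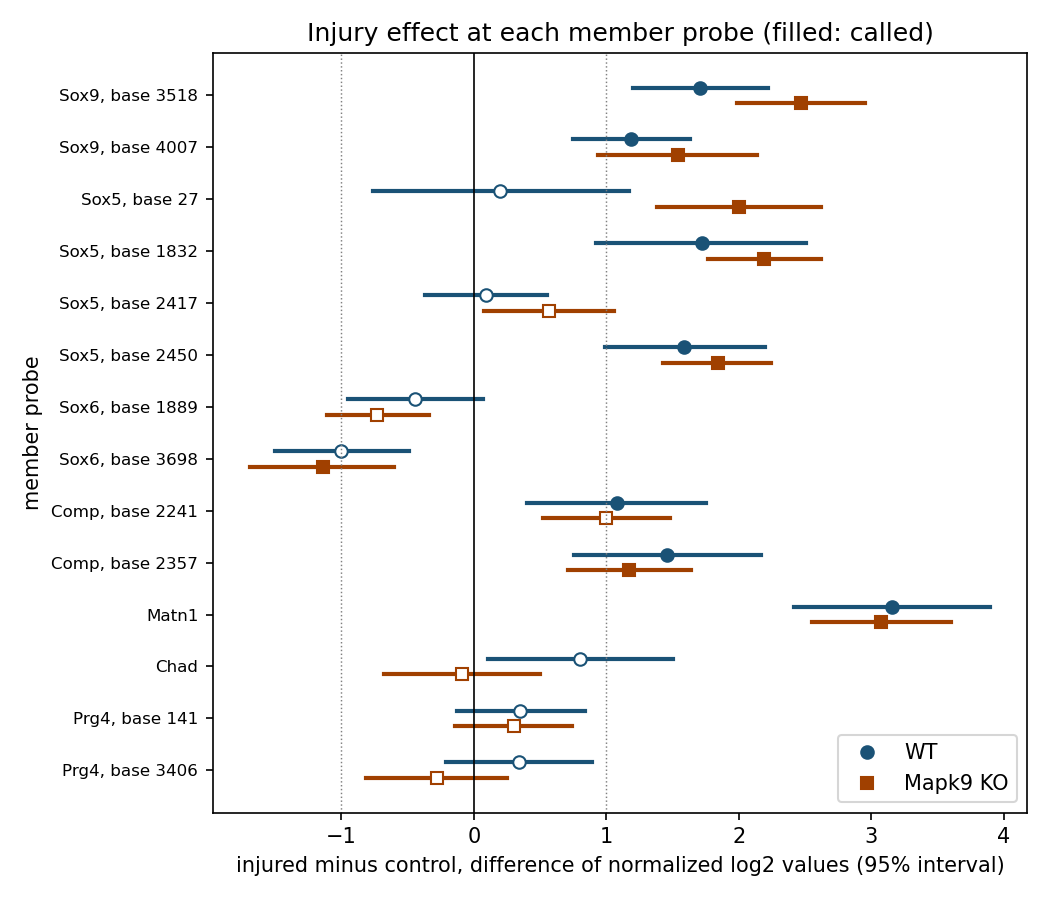
Injured-minus-control difference of normalized log2 values (x axis) with its 95% interval at each member probe, for WT (circles) and Mapk9 KO (squares); filled marks were called and dotted lines stand at a 2-fold difference. Matn1 lies farthest to the right in both genotypes (3.16 and 3.07), Sox6 lies to the left, and the intervals of the 2 genotypes part only at the Sox5 probe at base 27.

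Without the replicate block no member was called between genotypes. In control arrays the Mapk9 KO minus WT differences ran from -0.43 to 0.58, where 0.119% of all probes were called. In injured arrays they ran from -0.38 to 1.38, with 0.181% of all probes called, and the top of that range was the Sox5 probe at base 27. With the block that probe was called (1.38 ± 0.14, limma, adjusted p = 0.027), while the calls over all probes went from 38 to 188. For Matn1 the injured groups differed by -0.21 (95% interval -0.59 to 0.18), and for the main Sox9 probe by 0.00 (-0.37 to 0.37). Without the block, limma called the interaction at 0% of probes, members included, although 2088 of the 21004 had an unadjusted p under 0.05. With the replicate block 112 probes were called, of which 1, the Sox5 probe at base 27, belonged to a member. For Chad, whose difference was 0.80 in WT and -0.09 in Mapk9 KO, the interaction was -0.89 (-1.86 to 0.07; limma, adjusted p = 0.538). The second Sox9 probe had an interaction of 0.76 (limma, adjusted p = 0.451).

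Other tissues changed with injury as well. The mean of the 20 skeletal muscle genes lay at 9.80 to 11.86 in WT control and 7.48 to 9.23 in WT injured arrays, and at 11.96 to 12.19 and 7.77 to 8.87 in Mapk9 KO. Of these genes 15 fell in WT and 20 in Mapk9 KO, and 4 of them (Myh4, Tnni1, Neb, Casq1) were detected on no WT injured array. The last 3 were also detected on no Mapk9 KO injured array. The marrow lists moved in opposite directions. The erythroid mean went from a range of 10.53-11.07 in WT control arrays to 10.21-10.24 in WT injured arrays, with 4 of 12 genes falling, and from 11.00-11.27 to 10.06-10.28 in Mapk9 KO, with 4 falling. The granulocyte mean went from 11.54-12.33 to 13.02-13.30 in WT, with 6 of 9 genes rising, and from 12.18-12.45 to 12.88-13.30 in Mapk9 KO, with 3 rising. The mean of 4 adipocyte genes went from 7.17-8.98 to 5.81-6.07 in WT, with 2 falling, and from 7.82-9.98 to 5.42-5.84 in Mapk9 KO, with 3 falling. Plin1 and Cidec were detected on no injured array, and Plin1 was detected on no WT control array either. Of 6 bone genes 2 fell in WT and 4 in Mapk9 KO, of 2 measured tendon genes 1 fell in each, and of 6 B-cell genes 2 and 1 rose while 1 fell in Mapk9 KO. Of 6 endothelial genes 1 rose in WT and none was called in Mapk9 KO.

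**Figure D4:**
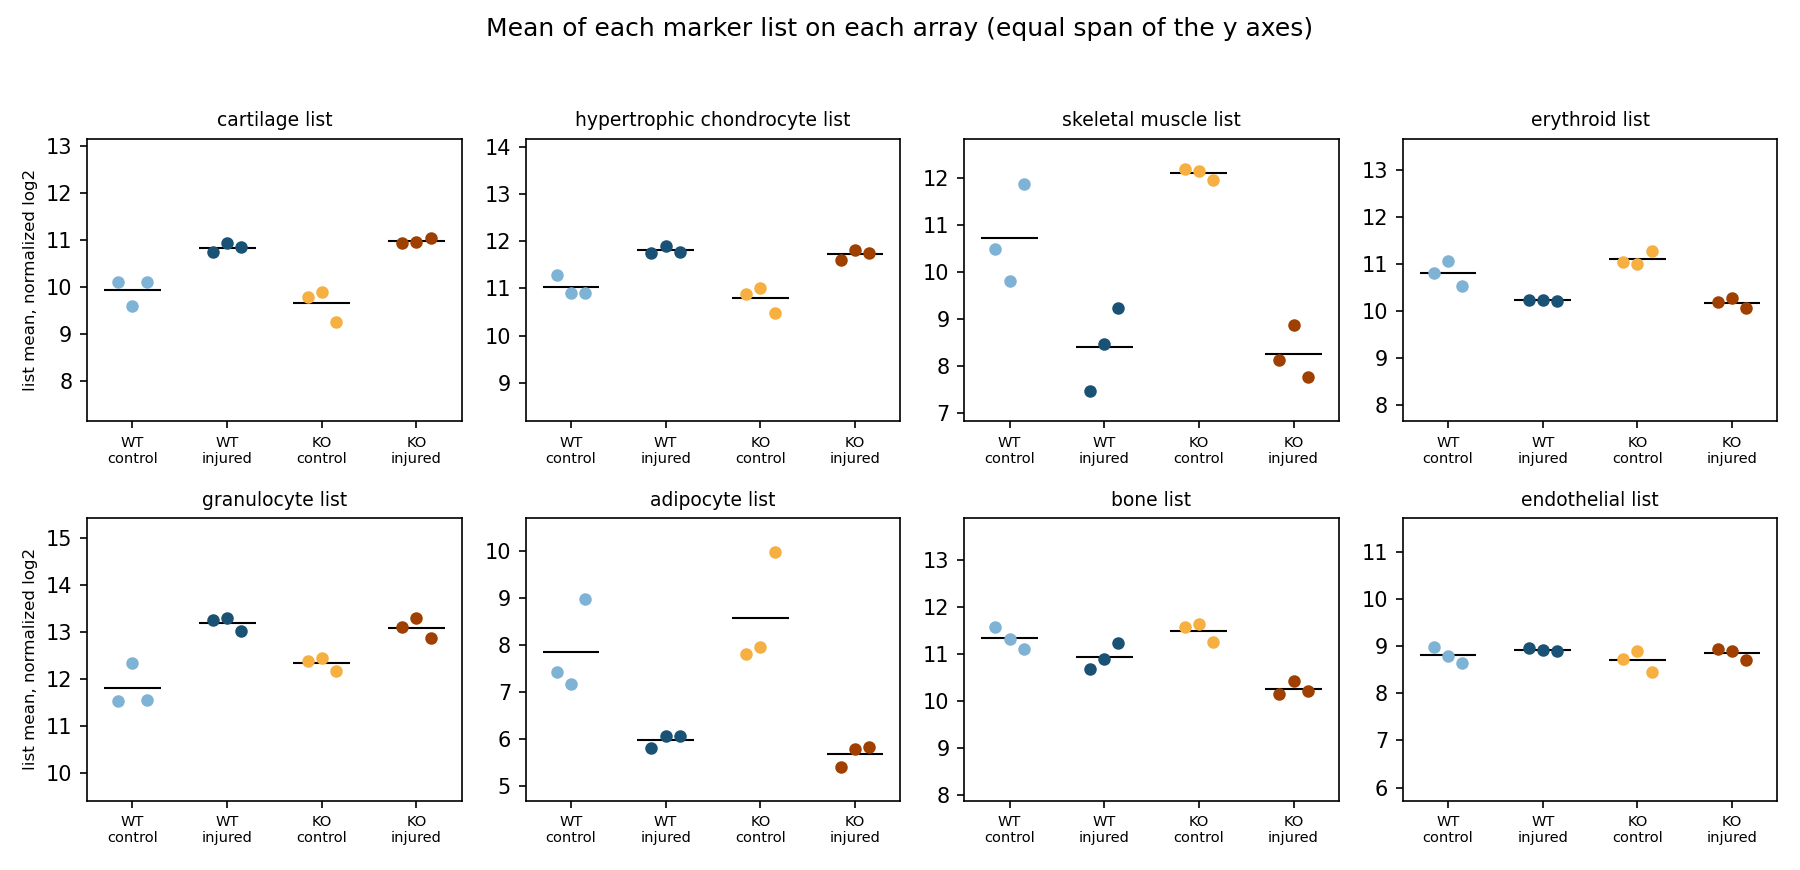
Mean normalized log2 value (y axis, equal span in all panels) of 8 lists of marker genes on each array by group; points are arrays and lines group means. Cartilage and hypertrophic chondrocyte lists are higher in injured arrays and the muscle list is lower (group means 10.71 to 8.40 in WT and 12.10 to 8.26 in Mapk9 KO), with erythroid lower, granulocyte higher and endothelial nearly level.

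The injury differences of the members were therefore also fitted with the muscle mean, and with the mean of the erythroid and granulocyte lists together (marrow), as a covariate over all 12 arrays. Matn1 gave 3.97 ± 0.47 with the muscle covariate and 3.60 ± 0.30 with the marrow covariate in WT, and 4.42 ± 0.69 and 2.73 ± 0.28 in Mapk9 KO, all called. The second Sox9 probe gave 2.06 and 2.03 in WT and 3.05 and 2.22 in Mapk9 KO, all called, as were the Sox5 probes at bases 1832 and 2450 in each of these fits. The rise of the Sox5 probe at base 27 in Mapk9 KO was 1.57 ± 1.04 with the muscle covariate and no longer called (limma, adjusted p = 0.444), and 1.57 ± 0.39 with the marrow covariate, where it was called (limma, adjusted p = 0.0063). The main Sox9 probe kept its size with the muscle covariate, at 1.18 ± 0.43 in WT and 1.52 ± 0.63 in Mapk9 KO, but was no longer called (limma, adjusted p = 0.0926 and 0.199). It was called with the marrow covariate in both genotypes. Comp at base 2357 gave 2.29 and 1.92 in WT, both called, and 2.54 (called) and 0.82 (not called) in Mapk9 KO. With the muscle covariate the main Comp probe gave 1.54 in WT, called, and 1.76 in Mapk9 KO, not called (limma, adjusted p = 0.167). With the marrow covariate neither Comp probe was called in Mapk9 KO. The main Sox6 probe was called lower in Mapk9 KO with the muscle covariate (-1.61, limma, adjusted p = 0.0479). The second Sox6 probe gave -1.16 in WT (limma, adjusted p = 0.0886) and -1.42 in Mapk9 KO (limma, adjusted p = 0.219) with the muscle covariate. With the marrow covariate it was called in both, at -1.03 and -1.12. The muscle mean did not overlap between control and injured arrays in either genotype. This widens these SEs, and these fits cannot separate the part of muscle from that of injury. The marrow mean joins lists that moved in opposite directions and so differed little with injury (10.97-11.61 in WT control and 11.41-11.55 in WT injured arrays, 11.62-11.66 and 11.27-11.58 in Mapk9 KO). The part of the erythroid list, the granulocyte list, fat and bone genes, each by itself, in the members' differences was not tested.

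**Figure D5:**
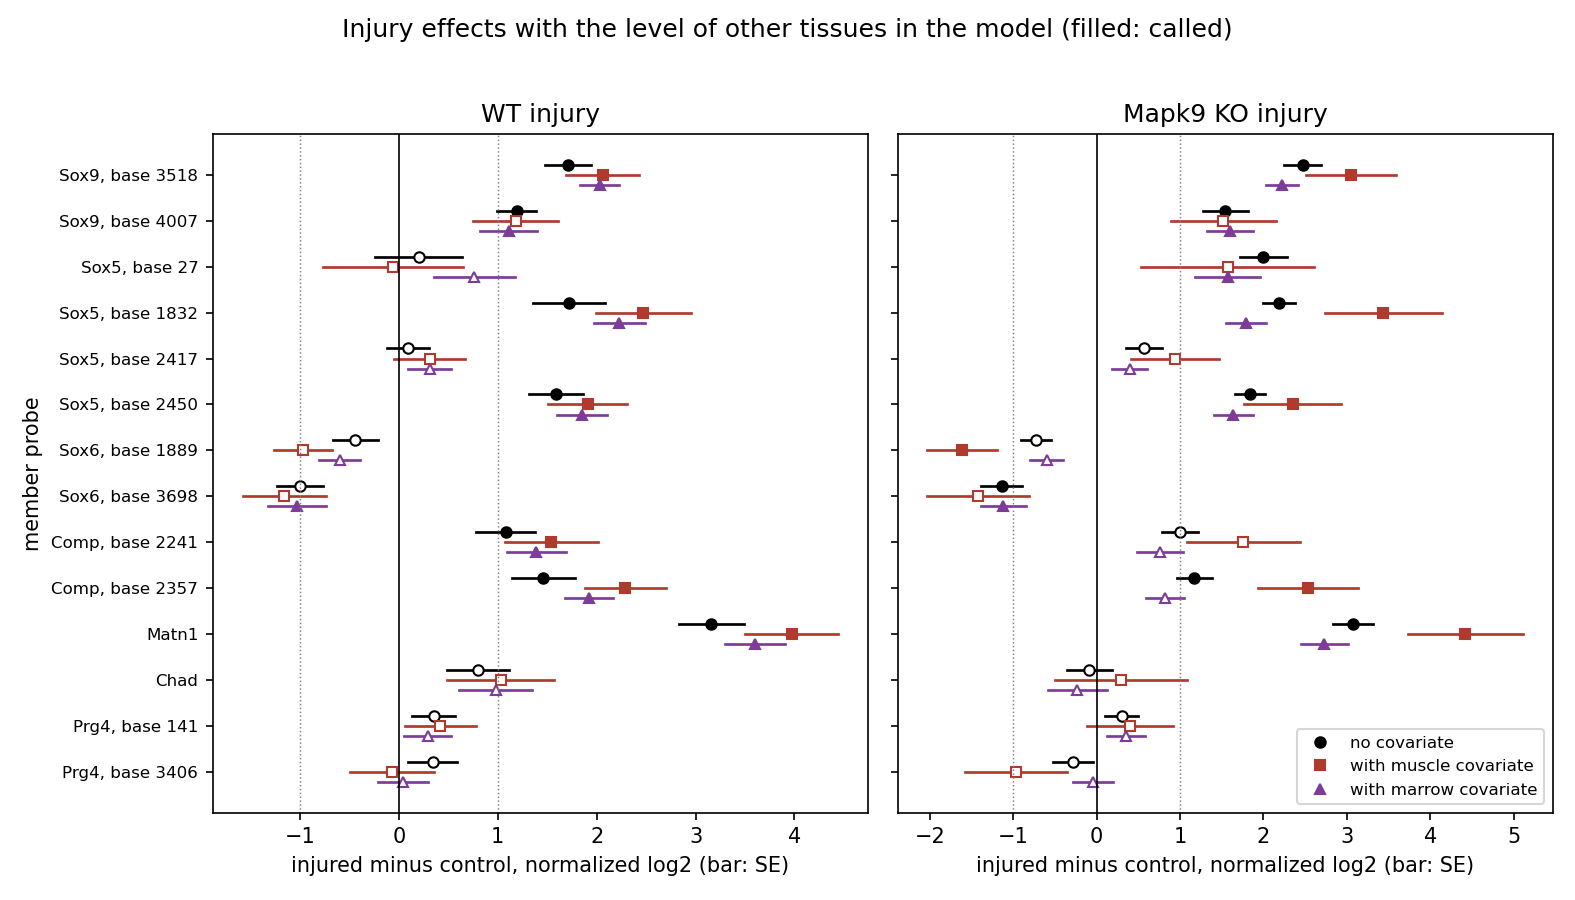
Injured-minus-control difference of normalized log2 values (x axis, bars are SE) at each member probe without a covariate (black), with the muscle list mean (red) and with the marrow list mean (purple), for WT on the left and Mapk9 KO on the right; filled marks were called. Matn1 stays between 2.73 and 4.42 in every fit, and the direction of change is kept at all Sox9, Sox6, Comp and Matn1 probes.

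Of 10 measured paralogs 4 rose at their main probe and 1 fell in each genotype. Among the SOXE and SOXD factors, Sox10 was detected on no control array and on all injured arrays, at least 2.21-fold higher in WT (limma, adjusted p = 0.00271) and at least 1.81-fold higher in Mapk9 KO (limma, adjusted p = 0.000202). With quantile normalization its differences were 0.65 and 0.52, below those bounds and not called. Sox8, a SOXE factor like Sox9, differed by 0.76 and 0.71 without a call, and the SOXD factor Sox13 by -0.43 and -0.94 without a call. Among the thrombospondins, to which Comp belongs, Thbs1 rose by 2.01 ± 0.53 in WT and 2.70 ± 0.20 in Mapk9 KO, and Thbs3 rose by 1.37 ± 0.28 and 1.73 ± 0.18. Thbs2 fell by 1.06 ± 0.27 and 1.41 ± 0.17, and was not called with the muscle covariate (-0.92 and -1.17) nor in WT with the marrow covariate (-0.93). The Mapk9 KO rise of Thbs1 was 3.69 with the muscle covariate and not called (limma, adjusted p = 0.0841). The matrilins besides Matn1 were not called: Matn2 differed by 0.18 in WT, and Matn4 by -0.40 in each genotype, with -0.75 to -0.01 in WT without 1 array. Matn2 was detected on no Mapk9 KO control array and on 2 of 3 Mapk9 KO injured arrays, so that its fitted 0.95 there stands for at least 1.24-fold. The chondroadherin relative Chadl, unlike Chad, rose by 1.97 ± 0.43 in WT (1.35 without the second WT control array) and 1.77 ± 0.25 in Mapk9 KO. Cilp2 differed by 0.65 and 0.79 without a call. Its WT value ran from 0.11 to 1.02 without 1 array and was called with the marrow covariate (1.19, limma, adjusted p = 0.0105). Single arrays decided 4 of these results. In WT, Thbs1 was not called without the first injured array (1.72), and its values without 1 array ran from 1.28 to 2.48. Thbs2 was not called there without the first control (-0.80) or the first injured array (-0.94). In Mapk9 KO, the Matn2 probe passed both limits without the second control or the second injured array, still with no detected control, and Sox13 was called without the second (-1.09) or the third injured array (-1.22) and with the marrow covariate (-1.19).

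Lists of other cartilage genes give the setting, counted at the main probe of each gene. Of 18 measured genes of the cartilage list, 9 rose and none fell in WT (median difference 1.00), and 14 rose and none fell in Mapk9 KO (median 1.33). Other probes of a gene could differ, as a further Col11a1 probe fell by 1.26 ± 0.22 in WT (limma, adjusted p = 0.00254) while the main one differed by 0.85 without a call. The second WT control array stood apart here, with a cartilage list mean of 9.60 against 10.10 and 10.11 in the other WT control arrays, a mean over the paralogs of 7.68 against 8.70 and 8.56, and a granulocyte mean of 12.33 against 11.54 and 11.55. It was also the lowest WT control array for Chad, Comp, Matn1 and every Sox5 probe. Without it the WT difference was 2.74 for Matn1, 1.08 for the second Comp probe, 1.23 for the Sox5 probe at base 1832 and 0.49 for Chad. Acan, the core protein of aggrecan, rose by 2.03 ± 0.39 and 2.18 ± 0.21, and the Wnt antagonist Frzb by 1.65 ± 0.25 and 2.33 ± 0.21. Col2a1, the chief cartilage collagen, differed by 0.54 ± 0.25 (limma, adjusted p = 0.15) and 0.03 ± 0.21 (limma, adjusted p = 0.937), and was picked out after its values were seen. It read 13.46 to 14.52 over the 12 arrays, near the top of the measured range, and the part of that in these small differences was not tested. Of 9 measured genes of hypertrophic cartilage 3 rose in WT and 4 in Mapk9 KO, and none fell at its main probe (medians 0.72 and 0.46). At a further probe Mef2c was 2.46-fold lower in Mapk9 KO injured than control arrays (limma, adjusted p = 0.000389). The genes that rose included Col10a1, the collagen of hypertrophic chondrocytes, at 2.64 ± 0.33 and 3.49 ± 0.20, and the growth plate signal Ihh at 2.24 ± 0.21 and 2.59 ± 0.25. Of 9 measured genes of the superficial zone, where Prg4 is made, 2 rose and 2 fell in WT (median 0.56) and 3 rose and 1 fell in Mapk9 KO (median 0.51). Pcolce2, an enhancer of procollagen processing, rose by 2.28 ± 0.51 (1.56 without the second WT control array) and 2.91 ± 0.18. Gdf5, a joint-forming growth factor, was detected on no control array and was at least 3.14-fold and 3.54-fold higher in injured arrays. With quantile normalization both differences lay below those bounds, and the one in WT was not called (0.97). Dkk3 fell by 1.25 ± 0.29 and 1.20 ± 0.17, and was not called with the muscle covariate (-0.70 and -0.29) nor in WT with the marrow covariate (-0.89). Abi3bp fell by 1.06 ± 0.31 in WT and differed by 0.51 ± 0.23 in Mapk9 KO, where it was not called. Its call in WT was lost without the first (-0.81) or the third control array (-1.01) and without the second (-0.84) or the third injured array (-1.07). It was also lost with the marrow covariate (-0.65, limma, adjusted p = 0.101) and the muscle covariate (-1.21, limma, adjusted p = 0.139).

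The genes whose pattern over the 12 arrays was most like that of each member are given as a description. The 12 arrays share the 4 groups, so no p is attached. Sox9 was closest to Papss2, an enzyme that supplies sulfate for proteoglycans (Pearson r = 0.994), Muc1 (0.985) and Mia (0.984). Sox5 was closest to Ppard (0.992), Sh2b3 (0.991) and LOC381140 (0.991). Sox6 was closest to 8430417B06Rik (0.955), 4933411D12Rik (0.953) and the adhesion molecule Vcam1 (0.947). Comp was closest to Ppp1r1b (0.988), Fbxo2 (0.987) and Bpifb1 (0.985), and Matn1 to Fxyd2 (0.996), 5430426F23Rik (0.994) and the secreted hormone Stc2 (0.994). Chad was closest to Uba1 (0.938), Ifitm2 (0.918) and Pqbp1 (0.905). The neighbours of Prg4 were ribosomal protein genes, namely Rps2 (0.976), Rpl41 (0.963) and Rps27a (0.960). None of these 6 neighbours of Chad and Prg4 was called after injury in either genotype, with differences such as 0.28 in WT and -0.17 in Mapk9 KO for Rps2. They were picked for likeness over the same control and injured arrays, so sharing the lack of a call is no separate result. The Prg4 neighbours had group means of 13.75 to 14.23, near the top of the measured range as Prg4 was. The part of that in the likeness was not tested.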

How the data were processed

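Total RNA was measured on 12 Illumina mouse BeadChips, 3 arrays for each of 4 groups. The authors deposited a table of normalized log2 values for 21004 probes and a table of non-normalized intensities with detection p-values for all 45281 probes, and these deposited p-values (under 0.05) defined detection. The number of arrays limits the precision. The members and gene lists were chosen with earlier results of these data known. Differences were fitted with limma 3.58.1 in R 4.3.3 on the deposited log2 values, each comparison on the arrays of its own groups and the interaction on all 12, with Benjamini-Hochberg adjustment. The script was tested on simulated data. Arrays of the same replicate number deviated together from their group means (r from 0.153 to 0.390 in 18 pairs, against -0.289 to 0.083 in 36 pairs of different number). Deviations from a mean cancel within a group, so these ranges are not independent of each other. The numbers were taken to pair arrays in the fits with the replicate block, and the main fits used no block. Symbols were updated through RefSeq accession, gene ID or older name. Named genes were all members, their paralogs, the 2 largest called rises and falls in WT of 3 cartilage lists, any gene of these lists called in opposite directions, and the 3 best correlated genes per member. Others, such as Col2a1, Col11a1 and Mef2c, were named outside these rules. Alternatives were neqc (offset 16), quantile normalization, median scaling, filters, blocks, covariates, tests, probes and leaving out each array. Two-sided tests were used throughout.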

Additional observations from a re-analysis of the deposited data

Results flagged for a closer look

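The Sox5 probe at base 27 was singled out because its injury effect differed between the genotypes in a test of that difference. With the replicate number as a block, the effect in Mapk9 KO exceeded that in WT by 1.80 ± 0.33 on the log2 scale (limma, adjusted p = 0.0484), with higher values in 3 of 3 Mapk9 KO pairs by 1.37 or more and in 3 of 3 WT pairs by 0.33 or less. Without the block the same difference was not called (limma, adjusted p = 0.357). The Sox5 probes at bases 1832 and 2450 had interactions of 0.48 and 0.24 without a call. The cause of the difference between probes was not tested.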

How the results depend on the processing

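Of 4 members called in WT, the methods' t-test left 2 (Matn1 and Sox9). Of 5 called in Mapk9 KO, the main probe of each gene left 3, and leaving out 1 array gave 3 to 5, with 3 without the third control array, where Comp and Sox6 were lost. With the replicate block 1 member was called between the genotypes in injured arrays and 1 in the interaction, against 0 of each without it, both times Sox5 at base 27 (adjusted p = 0.027 and 0.0484), and no other call of a member changed with that block. Over 14 probes and all alternatives, 223 of 252 WT values and 228 of 252 Mapk9 KO values kept direction and call, 16 and 10 lost the call, 5 and 11 gained one, and 8 and 3 turned direction. Those that turned were small. In WT, Prg4 at its main probe was -0.02 with neqc, with quantile normalization and with all probes, and -0.07 with the muscle covariate. Sox5 at base 27 was -0.06 with the muscle covariate and -0.23 to 0.57 without 1 array, and Sox5 at base 2417 was -0.03 to 0.19. In Mapk9 KO, Chad was 0.29 with that covariate and -0.37 to 0.12 without 1 array. Among the paralogs, which are outside these counts, Matn2 in WT was -0.12 and Matn4 in Mapk9 KO 0.10 with the muscle covariate. In WT, Pcolce2, Acan, Chadl, Thbs1, Abi3bp and Dkk3 were not called with all probes of the array or with the methods' t-test, nor Sox10, Thbs2 and Thbs3 with that test. In WT the main Sox9 probe stayed under the fold limit with neqc (0.94) and quantile normalization (0.93). Comp in WT was not called at either probe with all probes of the array (0.70 and 1.28). Sox6 in Mapk9 KO was not called with neqc (-0.97), quantile normalization (-0.40) or the methods' t-test (adjusted p = 0.0634). The causes were not tested. Over all probes, 3086 were called in WT, 1140 with quantile normalization, 1624 with the methods' t-test and 5319 with no fold limit. In Mapk9 KO these were 3934, 1756 with quantile normalization, 920 with the muscle covariate and 8045 with no fold limit. Between injured arrays 38 were called, 188 with the replicate block, 154 without the first WT, 64 without the second Mapk9 KO and 23 without the second WT injured array, 22 with quantile normalization or all probes and 0 with the methods' t-test. Between control arrays 25 were called, 300 with the marrow covariate and 412 without the third WT control array, and the interaction went from 0 to 112 with the replicate block and 242 without that array.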
